A study of Mus musculus with 4 samples.

Results

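The RNA-Seq values of mouse oocytes were examined for 9 genes of the NLRP family, Nlrp4a, Nlrp4b, Nlrp4c, Nlrp4e, Nlrp4f, Nlrp9a, Nlrp9b, Nlrp9c and Nlrp14, of the 25587 genes listed. They were chosen by name, as the protein-coding members of the NLRP4, NLRP9 and NLRP14 subfamilies, and each name had 1 row. The libraries came from pools of oocytes of wild-type mice of the C57BL/6 strain (C57BL/6Babr), with no treatment or allele that sets the groups apart, and 1 library was made per stage. Non-growing oocytes (NGOs) were taken at 5 days post-partum (dpp), growing oocytes at 8 to 14 dpp (GO1) and at 15 dpp (GO2), and fully grown oocytes (FGOs) at 20 dpp. Total RNA was depleted of ribosomal RNA and sequenced from both ends. A dUTP protocol was used for NGO and FGO, and a ScriptSeq kit for GO1 and GO2, so across these protocols stage and protocol cannot be told apart. Fold differences between stages were therefore taken within a protocol only, from NGOs to FGOs or from GO1 to GO2. Orders of levels and profiles over all 4 libraries span both protocols and are descriptions only. Where 4 values are given without names, they follow the order NGO, GO1, GO2, FGO.

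NLR proteins are intracellular receptors with a nucleotide-binding NACHT domain and leucine-rich repeats, and those of the NLRP family carry a pyrin domain at their start. Some, such as Nlrp3, assemble inflammasomes with the adaptor ASC and caspase-1 in immune and barrier cells. A second group of NLRP genes is transcribed in the ovary and best known from oocytes and early embryos, where Nlrp5 (MATER) belongs to the subcortical maternal complex, a protein assembly that the embryo needs for its first divisions. The mouse NLRP4 and NLRP9 subfamilies arose by repeated duplication, so their members are close in sequence.

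All but 1 of the 9 genes lay on chromosome 7 in the GRCm38 build. Nlrp9c (26322473 to 26403700, minus strand), Nlrp4a (26435113 to 26476142, plus strand) and Nlrp9a (26535023 to 26575615, plus strand) followed each other with gaps of 31.4 and 58.9 kb. Nlrp4c (6045161 to 6105149), Nlrp4b (10687793 to 10730168), Nlrp9b (20008023 to 20073306) and Nlrp4e (23301275 to 23362270) lay further toward the start of that chromosome on the plus strand, and Nlrp14 (107166990 to 107198102, plus strand) lay 80.6 Mb beyond Nlrp9a. Nlrp4f lay on chromosome 13 (65177111 to 65205716, minus strand). In GENCODE the longest coding transcript of each gene had 9 to 11 exons and a coding length of 2589 bases (Nlrp4b) to 3012 bases (Nlrp9a and Nlrp9c).

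Promoter windows of 300 bases, from 250 before to 50 after the transcription start, were found in the RefSeq table (GRCm38.p6) for 8 of the 9 genes, all except Nlrp14. The windows of Nlrp9a and Nlrp9c are shown first because these were the only members past a 4-fold difference from NGOs to FGOs, and Nlrp9b because it is the third gene of that subfamily. Capitals mark the letters CCAAT on either strand.
Nlrp9a, chr7:26534773-26535072, plus strand: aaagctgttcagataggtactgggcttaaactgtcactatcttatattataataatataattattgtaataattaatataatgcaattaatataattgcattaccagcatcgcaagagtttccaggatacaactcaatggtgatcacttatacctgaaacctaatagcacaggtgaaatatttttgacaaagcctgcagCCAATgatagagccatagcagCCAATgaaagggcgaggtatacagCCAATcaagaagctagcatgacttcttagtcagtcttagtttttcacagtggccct
Nlrp9c, chr7:26403651-26403950, minus strand: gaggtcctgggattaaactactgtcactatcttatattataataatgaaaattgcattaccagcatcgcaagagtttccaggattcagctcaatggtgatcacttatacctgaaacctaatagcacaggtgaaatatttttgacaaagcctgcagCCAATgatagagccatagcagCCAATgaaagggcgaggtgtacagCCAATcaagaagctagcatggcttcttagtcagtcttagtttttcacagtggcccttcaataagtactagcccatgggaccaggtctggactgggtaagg
Nlrp9b, chr7:20007773-20008072, plus strand: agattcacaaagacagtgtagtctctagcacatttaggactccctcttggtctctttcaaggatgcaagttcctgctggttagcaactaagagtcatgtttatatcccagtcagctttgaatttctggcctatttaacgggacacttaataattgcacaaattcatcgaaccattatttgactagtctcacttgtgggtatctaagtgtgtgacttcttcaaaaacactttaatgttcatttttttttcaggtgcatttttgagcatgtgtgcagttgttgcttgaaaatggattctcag
The windows of Nlrp9a and Nlrp9c were near copies of each other. Bases 94 to 300 of the Nlrp9a window and bases 50 to 256 of the Nlrp9c window aligned without a gap over 207 bases, of which 203 (98.1 %) were identical, and the 3 CCAAT letters of each window lay in this stretch. The best local alignment of the Nlrp9b window covered 14 bases of Nlrp9a and 13 bases of Nlrp9c.

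The windows of Nlrp4a (the second of 2 annotated starts), Nlrp4b (the first of 2) and Nlrp4c are shown because they were alike in sequence while the levels of Nlrp4c went another way than those of Nlrp4a and Nlrp4b. Capitals again mark CCAAT on either strand.
Nlrp4a, chr7:26435364-26435663, plus strand: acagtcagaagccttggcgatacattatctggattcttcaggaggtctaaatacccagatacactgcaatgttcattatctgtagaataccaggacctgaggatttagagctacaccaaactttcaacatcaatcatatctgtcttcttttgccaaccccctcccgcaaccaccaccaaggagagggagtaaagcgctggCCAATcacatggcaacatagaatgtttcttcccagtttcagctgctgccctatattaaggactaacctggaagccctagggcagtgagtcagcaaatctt
Nlrp4b, chr7:10687543-10687842, plus strand: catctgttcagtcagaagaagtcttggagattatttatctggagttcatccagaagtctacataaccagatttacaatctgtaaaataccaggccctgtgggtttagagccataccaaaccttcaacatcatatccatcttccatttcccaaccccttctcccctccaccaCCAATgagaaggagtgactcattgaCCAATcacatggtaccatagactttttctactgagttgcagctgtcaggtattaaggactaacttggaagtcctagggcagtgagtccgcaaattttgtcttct
Nlrp4c, chr7:6044911-6045210, plus strand: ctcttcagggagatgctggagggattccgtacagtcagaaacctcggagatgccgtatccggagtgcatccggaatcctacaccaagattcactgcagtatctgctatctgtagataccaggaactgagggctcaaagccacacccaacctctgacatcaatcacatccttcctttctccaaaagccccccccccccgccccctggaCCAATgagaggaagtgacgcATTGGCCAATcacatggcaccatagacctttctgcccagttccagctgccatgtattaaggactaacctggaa
The windows shown for Nlrp4a and Nlrp4b were 80.4 % identical over 275 aligned bases. That of Nlrp4c was 78.3 % identical to Nlrp4a over 263 bases and 80.5 % identical to Nlrp4b over 257 bases. The last 45 bases of this Nlrp4a window matched the first 45 bases of the Nlrp4f window with 91.1 % identity. The annotated start of Nlrp4f thus lay downstream of the place where the second start of Nlrp4a aligned. The window of the first Nlrp4a start (chr7:26434863-26435162) was unlike these and held no CCAAT. Its best local alignments covered 18 bases with the Nlrp4b window and 13 bases with the Nlrp4c window.

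Over the 10 windows of these 8 genes, the GC content was 36.0 to 53.0 % with a median of 42.3 %, compared with a median of 52.7 % over all 32851 promoter windows of the table. The windows held 0 to 7 CpGs each, and the median over all windows was 7. CCAAT was present in 7 of the 10 windows, belonging to 6 of the 8 genes, and in 37.4 % of all windows. These windows are not separate cases, for this motif or those below. Both Nlrp4b windows shared the same 272 bases. The Nlrp9a and Nlrp9c windows were near copies, and those shown for Nlrp4a, Nlrp4b and Nlrp4c were alike. The letters CANNTG, the E-box bound by FIGLA and SOHLH1, were present in all 10 windows of the 8 genes and in 72.3 % of all windows. For NOBOX, the letters TAATTG were present in the windows of Nlrp9a and Nlrp9b and in 8.0 % of all windows. The related letters TAATTA were found for Nlrp9a alone among the members and in 5.29 % of all windows. The Nlrp9b window was the only one of the members to hold the TATA box letters TATAAA, present in 13.6 % of all windows. All motifs were searched on both strands and none of these letter matches shows a bound site.

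The 9 genes were among the more abundant RNAs of every library. All of them had an RPKM (reads per kilobase of exon, scaled by the authors to a total per library) above 1 and at least 3 counts in all 4 libraries, whereas 36.6 to 38.5 % of the listed genes had an RPKM above 1. Together they reached a summed RPKM of 2271 (NGO), 2492 (GO1), 2388 (GO2) and 2237 (FGO), which is 1.21, 1.43, 1.41 and 1.19 % of the RPKM of all genes. In GO1, GO2 and FGOs all 9 lay above the 90th percentile of listed genes. In NGOs 6 did, and the lowest was Nlrp9c at percentile 72.2. The values are shares of a library, so more molecules per oocyte and less RNA of other genes cannot be told apart, and neither can fewer cells of another type and less RNA per cell.

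Between 61898674 (NGO) and 133355431 (GO2) counts per library were recovered on genes. For 1 kb of exons, 3 counts correspond to an RPKM between 0.0124 (GO2) and 0.0271 (NGO), far under the level of every member. The fitted totals exceeded the uniquely mapped reads that the study gives for each library, so a count may be a mate or a segment of a spliced alignment, and several counts may come from the same fragment. The 95 % Poisson intervals of the members' levels reached at most 4.23 % to either side in NGOs (Nlrp9c) and at most 2.31 % in the other libraries. Reads that carry no molecular identifier are not independent molecules, so these intervals and all those below reflect counting error alone, and they are too narrow even for that if fragments were counted more than once. With counts divided by 4, more than the excess of the totals in any library, they reached 8.51 % in NGOs and at most 4.63 % in the other libraries. With 1 library per stage there was no replicate spread and no test.

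The oocyte markers were present in every library. All 10 markers, among them Gdf9, Zp3 and Ddx4, had an RPKM above 1 in all 4 libraries. The summed RPKM of 6 stroma markers was 5.51 in NGOs and 0.158, 0.238 and 0.245 in GO1, GO2 and FGOs, and 4 of the 5 with enough counts were lower past 4-fold in FGOs, the largest differences being those of the collagen genes Col3a1, Col1a2 and Col1a1. The 11 granulosa cell markers summed to 6.25, 11.1, 13.5 and 13.7. Of this, Nr5a2 gave 3.62, 9.57, 11.4 and 8.65. From NGOs to FGOs 5 of the 11 were higher past 2-fold and 2 lower. Among them Hsd17b1 (log2 ratio 2.28), Kitl (1.72), Inha (1.32) and Fshr (1.19) were higher, and Wt1 (-2.85) and Foxl2 (-1.35) lower. The defining marker Foxl2 was at 0.0753, 0.00313, 0.0115 and 0.0265, and Amh at 0.2498, 0.0284, 0.0199 and 0.412. The 8 leukocyte markers found in the table summed to 0.825, 0.558, 0.652 and 0.372, with Cd3e at 0 in all libraries and with Csf1r at 3 counts in GO1 and 58 in GO2. The 5 blood and endothelial markers summed to 2.98, 5.18, 8.36 and 9.81, of which Pecam1 gave 1.74, 5.15, 8.28 and 9.70 and Hba-a1 had 81 counts in NGOs and 0 in FGOs. Every one of these non-oocyte sums was below the summed RPKM of the NLRP9 genes in the same library. Nlrp9c by itself, at 3.30 in NGOs, stood below the stroma and granulosa sums there. Marker sums set beside other genes do not measure how much RNA came from other cells. The part of the stroma, granulosa and Pecam1 values in the differences described below was not tested.

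Nlrp14 was by far the most abundant member. Its protein is required in the egg for embryo development. Its RPKM was 1780 (NGO), 1623 (GO1), 1562 (GO2) and 1413 (FGO), which placed it at rank 5, 5, 3 and 4 of all listed genes. It was lowest in FGOs, and it gave 78.4 % of the summed RPKM of the members in NGOs and 63.2 % in FGOs. FGOs stood 1.21-fold below NGOs (log2 ratio -0.28), and GO2 stood 1.06-fold below GO1 (log2 ratio -0.09).

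Nlrp4f was second in every library. Its protein has been linked to the subcortical maternal complex in oocytes. Its RPKM was 323 (NGO), 406 (GO1), 356 (GO2) and 346 (FGO), at ranks 47, 39, 39 and 47. It was the most even of the members between NGOs and FGOs, with a log2 ratio of 0.15, and it was 1.17-fold lower in GO2 than in GO1 (log2 ratio -0.22). Nlrp14 exceeded Nlrp4f 5.51-fold (NGO), 3.999-fold (GO1), 4.39-fold (GO2) and 4.08-fold (FGO), a ratio taken within each library, so that no scaling between libraries enters it.

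**Figure D1:**
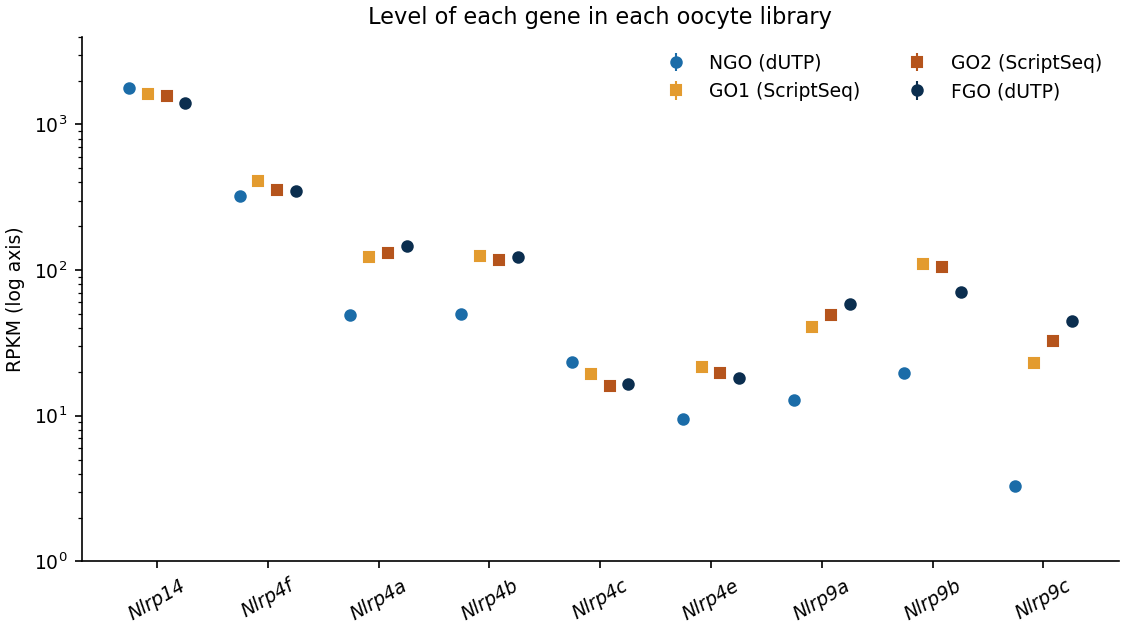
RPKM of each of the 9 genes (log axis) in the 4 libraries, 1 library per stage. Circles are dUTP libraries and squares ScriptSeq libraries, and bars are 95 % Poisson intervals for counting error, mostly smaller than the symbols. Nlrp14 (1413 to 1780) and Nlrp4f (323 to 406) lie above the other 7 in every library, and the NGO value is the lowest for Nlrp4a, Nlrp4b, Nlrp4e, Nlrp9a, Nlrp9b and Nlrp9c.

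Nlrp4a and Nlrp4b had nearly equal RPKM values in every library. Nlrp4a had an RPKM of 48.9 (NGO), 123 (GO1), 131 (GO2) and 146 (FGO). Nlrp4b had 50.1, 125, 118 and 123. Nlrp4a stood at 0.976 times the level of Nlrp4b in NGO (exact binomial 95 % interval 0.959 to 0.993), 0.986 times in GO1 (0.976 to 0.996), 1.11 times in GO2 (1.10 to 1.12) and 1.19 times in FGO (1.17 to 1.20). With counts divided by 4 the intervals in NGO (0.942 to 1.01) and GO1 (0.966 to 1.01) included an equal level. No interval covers the choice of exon length, 4759 bases for Nlrp4a and 4485 for Nlrp4b. Their longest coding transcripts have 4259 and 3326 bases, and with those lengths Nlrp4b would stand above Nlrp4a in every library. From NGOs to FGOs Nlrp4a was higher 3.09-fold (log2 ratio 1.63, interval 1.61 to 1.65) and Nlrp4b 2.55-fold (1.35, interval 1.33 to 1.37). From GO1 to GO2 both stayed close to even, with log2 ratios of 0.05 and -0.11. Both genes therefore lay low in NGOs and at 118 to 146 in the other 3 libraries.

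Nlrp4c and Nlrp4e were the members with the lowest levels in GO1, GO2 and FGOs, and they exchanged their order. Nlrp4c had an RPKM of 23.4 (NGO), 19.3 (GO1), 16.0 (GO2) and 16.5 (FGO), and so was highest in NGOs. Nlrp4e, whose product has been linked to preimplantation development, had 9.46, 21.6, 19.6 and 18.3 and was lowest in NGOs. The level of Nlrp4e relative to Nlrp4c was 0.405 (NGO, interval 0.389 to 0.421), 1.12 (GO1, 1.09 to 1.15), 1.23 (GO2, 1.20 to 1.26) and 1.11 (FGO, 1.07 to 1.15). These intervals do not cover the choice of exon length, 3310 bases for Nlrp4e and 3899 for Nlrp4c. The longest coding transcripts have 3382 and 3615 bases, and with those lengths the 2 genes would lie closer in GO1, GO2 and FGOs. The trend of the ratio over the libraries does not depend on length. The log2 ratio of Nlrp4c from NGOs to FGOs was -0.45, the lowest of the 9. Nlrp4e was 2.01-fold higher in FGOs (log2 interval 0.95 to 1.06), and 3 of 6 other ways of computing this ratio left it under 2-fold, at a log2 ratio of 0.88 at the lowest. From GO1 to GO2 the log2 ratios were -0.31 for Nlrp4c and -0.17 for Nlrp4e. The level of Nlrp4a relative to Nlrp4c was 2.09 (NGO), 6.36 (GO1), 8.18 (GO2) and 8.84 (FGO).

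The NLRP9 genes showed the largest differences of the 9 from NGOs to FGOs. Their summed RPKM was 35.7 (NGO), 174 (GO1), 187 (GO2) and 174 (FGO). Nlrp9c had an RPKM of 3.30 (NGO, Poisson 95 % interval 3.17 to 3.44), 23.1 (GO1), 32.5 (GO2) and 45.1 (FGO). It was the lowest of the members in NGOs and seventh of 9 in the other libraries. Its level in FGOs was 14.1-fold that in NGOs (log2 ratio 3.82, exact binomial 95 % interval 3.76 to 3.89), above 97.7 % of the genes compared, and from GO1 to GO2 it had the highest ratio of the 9 as well, at 1.37-fold (0.46, interval 0.43 to 0.48).

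Nlrp9a had an RPKM of 12.9 (NGO), 41.0 (GO1), 49.5 (GO2) and 58.1 (FGO). Like Nlrp4a and Nlrp9c, the members nearest to it on chromosome 7, it was lowest in NGOs and highest in FGOs. It was 4.68-fold higher in FGOs than in NGOs (log2 ratio 2.23, interval 2.18 to 2.27) and 1.18-fold higher in GO2 than in GO1 (0.24, interval 0.22 to 0.27).

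Nlrp9b, known from the intestine as a sensor in the response to rotavirus, had an RPKM of 19.5 (NGO), 110 (GO1), 105 (GO2) and 71.0 (FGO). Unlike the other NLRP9 genes it was highest in GO1. It was 3.77-fold higher in FGOs than in NGOs (log2 ratio 1.91, interval 1.88 to 1.95), just under the 4-fold threshold, and its log2 ratio from GO1 to GO2 was -0.11.

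The balance within the NLRP9 genes differed between libraries. Nlrp9c stood at 0.169 times the level of Nlrp9b in NGO (interval 0.161 to 0.177), 0.209 times in GO1 (0.206 to 0.213), 0.311 times in GO2 (0.308 to 0.315) and 0.635 times in FGO (0.625 to 0.645). These intervals do not overlap, nor do they with counts divided by 4. Nlrp9c relative to Nlrp9a went from 0.256 to 0.564, 0.656 and 0.776 in the same order of libraries. Nlrp9a relative to Nlrp9b was 0.659, 0.371, 0.474 and 0.818, lower in the ScriptSeq libraries than in the dUTP libraries. The level of Nlrp9c rests on an exon length of 5935 bases, found from the deposited values, while its longest coding transcript in GENCODE is 3216 bases long. A shorter length would raise its RPKM by the same factor in every library and leave the trend of these ratios as it is, but not the order of the genes. If all its counts lay on that transcript, its RPKM would be up to 6.10 (NGO), 42.7 (GO1), 60.0 (GO2) and 83.2 (FGO), above Nlrp9a in the last 3 libraries and above Nlrp9b in FGO.

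**Figure D2:**
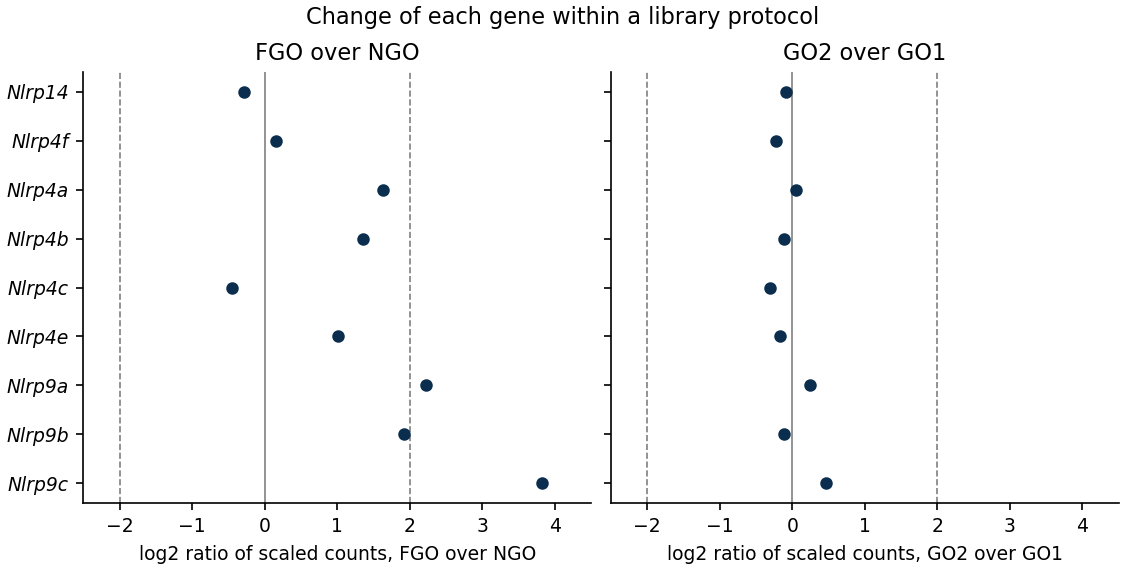
log2 ratio of scaled counts for each of the 9 genes, FGO over NGO (left) and GO2 over GO1 (right). Bars are exact binomial 95 % intervals for counting error, mostly smaller than the points, and dashed lines mark 4-fold. Nlrp9c (3.82) and Nlrp9a (2.23) lie past 4-fold on the left, and all 9 genes lie between -0.31 and 0.46 on the right.

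From NGOs to FGOs, 2 of the 9 genes were higher past 4-fold (Nlrp9a and Nlrp9c) and none was lower past 4-fold. Over the 15255 genes holding 20 counts or more in this pair, 8.57 % were higher and 5.52 % lower past 4-fold. Past 2-fold, 6 of the 9 were higher (Nlrp4a, Nlrp4b, Nlrp4e, Nlrp9a, Nlrp9b and Nlrp9c) and none was lower, beside 17.7 % higher and 16.8 % lower over all genes compared. The median log2 ratio was 1.35 over the members and -0.01 over all genes compared.

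From GO1 to GO2, none of the 9 genes differed past 2-fold in either direction. Over the 15736 genes compared in this pair, 6.88 % were higher and 2.85 % lower past 2-fold, and 1.51 % were higher and 0.254 % lower past 4-fold. The median log2 ratio was -0.11 over the members and 0.02 over all genes compared. In both pairs Nlrp4a, Nlrp9a and Nlrp9c had ratios above 0 and Nlrp4c and Nlrp14 below 0. The other 4 genes were above 0 from NGOs to FGOs and below 0 from GO1 to GO2. The signs thus agreed for 5 of the 9 genes. How often they agreed over all genes was not computed, so this is a description only.

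The order of the levels was the same in the upper part of every library. Nlrp14 came first and Nlrp4f second, followed by Nlrp4a and Nlrp4b in either order. From GO1 to FGOs the lower part read Nlrp9b, Nlrp9a, Nlrp9c, Nlrp4e and Nlrp4c, and in NGOs it read Nlrp4c, Nlrp9b, Nlrp9a, Nlrp4e and Nlrp9c. The Poisson intervals of neighbours in this order overlapped in 1 case, Nlrp4b and Nlrp4a in GO1. With counts divided by 4 they overlapped also for this pair in NGOs and for Nlrp9c and Nlrp4e in GO1. Differences between neighbours could not be set against a spread between libraries of 1 stage. The order of genes with close levels also rests on the exon lengths behind the RPKM values.

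Without Nlrp14 and Nlrp4f, the summed RPKM of the other 7 genes was 168 (NGO), 463 (GO1), 471 (GO2) and 478 (FGO). The sum was close to even over the last 3 libraries while its parts were not. Nlrp9b gave the larger part of the NLRP9 level in NGOs and GO1, and in FGOs Nlrp9a and Nlrp9c together exceeded it. In GO2 the balance turned on the exon length of Nlrp9c, with Nlrp9b larger as deposited and smaller (105 against 109.6 for the other two) at the transcript length given above.

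**Figure D3:**
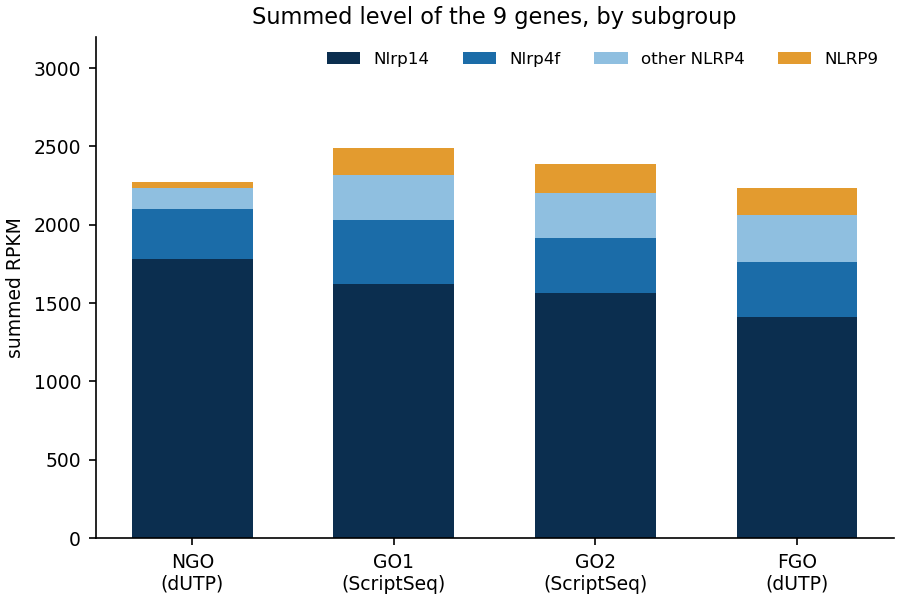
Summed RPKM of the 9 genes in each library, stacked by subgroup: Nlrp14, Nlrp4f, the other NLRP4 genes (Nlrp4a, Nlrp4b, Nlrp4c, Nlrp4e) and the NLRP9 genes. The totals are 2271, 2492, 2388 and 2237, and the NLRP9 part is smallest in NGOs (35.7).

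The closest members in coding sequence were not the closest in their centred profiles over the 4 libraries. Coding sequences of the NLRP4 genes were 77.8 to 93.9 % identical over their aligned bases, those of the NLRP9 genes 82.8 to 87.7 %, and pairs from different subfamilies 57.9 to 61.4 %. Nlrp4c and Nlrp4e were the closest pair at 93.9 %, but their centred log2 RPKM profiles differed by up to 1.13 in a library. Nlrp4a and Nlrp4b, at 78.0 %, had the most similar profiles of all member pairs, with a greatest difference of 0.16, followed by Nlrp4b and Nlrp4e at 0.18 with 79.0 % identity. Nlrp4c was closest in profile to Nlrp14 (0.19), a gene of another subfamily. Among the NLRP9 genes, Nlrp9a and Nlrp9c were closest in coding sequence (87.7 %) and in promoter window, but the profile of Nlrp9a was nearer to Nlrp9b (0.58) than to Nlrp9c (1.02). Of all members, Nlrp4a had the profile nearest to that of Nlrp9a (0.37). These are descriptions of 10 NLRP4 pairs and 3 NLRP9 pairs, which share genes and libraries.

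**Figure D4:**
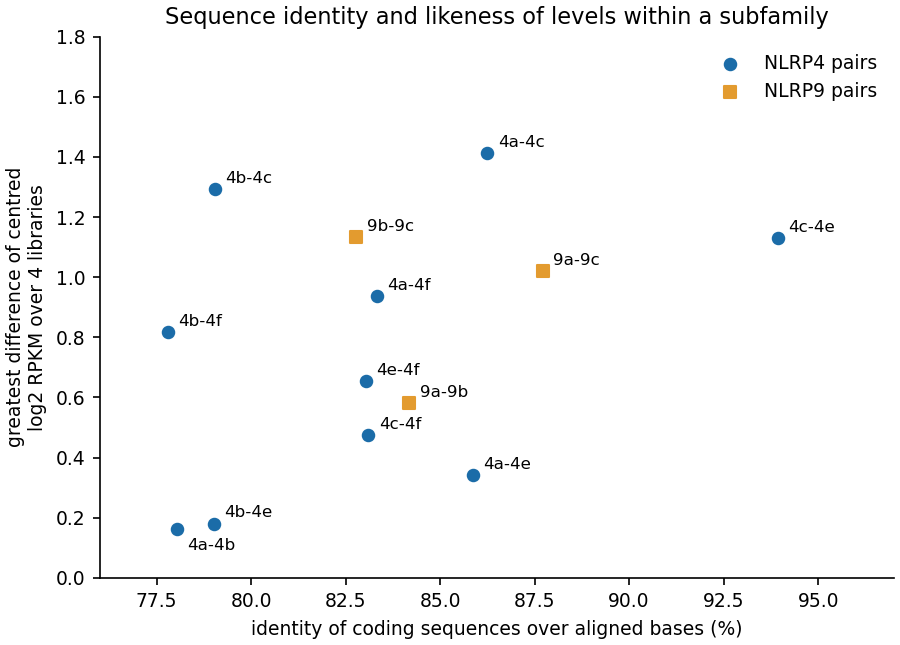
For each pair within the NLRP4 (circles) and NLRP9 (squares) subfamilies, the identity of the coding sequences (x axis, %) and the greatest difference between the centred log2 RPKM values of the genes over the 4 libraries (y axis). The pair 4c-4e has the highest identity (93.9 %) with a difference of 1.13, and the pair 4a-4b has one of the lowest identities (78.0 %) with the smallest difference (0.16).

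Reads that match several copies could not be told apart from unique ones in these values, because the mapping kept 1 alignment per read. The share of 100-base words of a member's longest coding transcript that occurred in a transcript of another GENCODE gene was 0 % for Nlrp4a, Nlrp4b and Nlrp14, 0.145 % for Nlrp4f, 0.449 to 1.36 % for Nlrp4c and the NLRP9 genes, and 11.5 % for Nlrp4e. The words of Nlrp4e were shared with the pseudogenes Gm8486, Gm16443, Gm4541, Gm8685 and Gm8728, and 21 of its words with Nlrp4c. Each of these pseudogenes also shared 30 words with Nlrp4c. By this measure alone, Nlrp4e was the most open of the 9 to reads of other genes. The choice of exon length is a separate uncertainty, largest in effect where the lengths differ most. For Nlrp9c the search covered 3216 bases, not the 5935 behind its RPKM. With words of 50 bases the shares were 0 % for Nlrp4b and Nlrp14, 3.11 to 11.9 % for 6 genes and 36.9 % for Nlrp4e. An annotated pseudogene on the same strand, Gm18877, shared 136 exonic bases with Nlrp9b.

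Among 21 other NLR genes in the table, few reached the levels of the 9 members. An RPKM above 1 was found for 4 of them in NGOs, 5 in GO1 and 6 in GO2 and FGOs. Nlrp5 was the highest, with an RPKM of 777 (NGO), 680 (GO1), 528 (GO2) and 414 (FGO), lower in each later library. Nlrp2, another gene linked to the subcortical maternal complex, had 40.7, 118, 116 and 115 and was lowest in NGOs. The annotated pseudogene Nlrp4g had 72.9, 127, 130 and 109. From NGOs to FGOs 4 of the 15 genes with enough counts were higher past 4-fold, beside 8.57 % of all genes compared. The 3 with the highest ratios were Nlrc4 and Naip6, which belong to the inflammasome that senses bacterial flagellin and secretion systems, and Nlrp3. The fourth was Naip1. Their levels were low: Nlrc4 had an RPKM of 0.104 in NGOs and 1.71 in FGOs, Naip1 0.441 and 2.502, Naip6 0.00795 and 0.0931, and Nlrp3 0.00669 (3 counts) and 0.0701 (34 counts). From GO1 to GO2 none of the 13 genes with enough counts was past 4-fold, and the other 8 were not compared.

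The genes listed as inflammasome partners, which include cytokine and other sensor genes, were mostly at low levels. Of 10 such genes, 1 had an RPKM above 1 in any library, Nek7, a kinase with a role in mitosis as well, at 5.43, 4.52, 3.87 and 4.19. Pycard, which encodes ASC, was at 0.0450 (NGO), 0.0168 (GO1), 0 (GO2) and 0.00595 (FGO). Casp1 had 1 count in NGOs and 4 in FGOs. From NGOs to FGOs 3 of the 10 had enough counts to be compared, and of these Il18 was past 4-fold, lower in FGOs (4 counts) than in NGOs (22 counts).

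**Figure D5:**
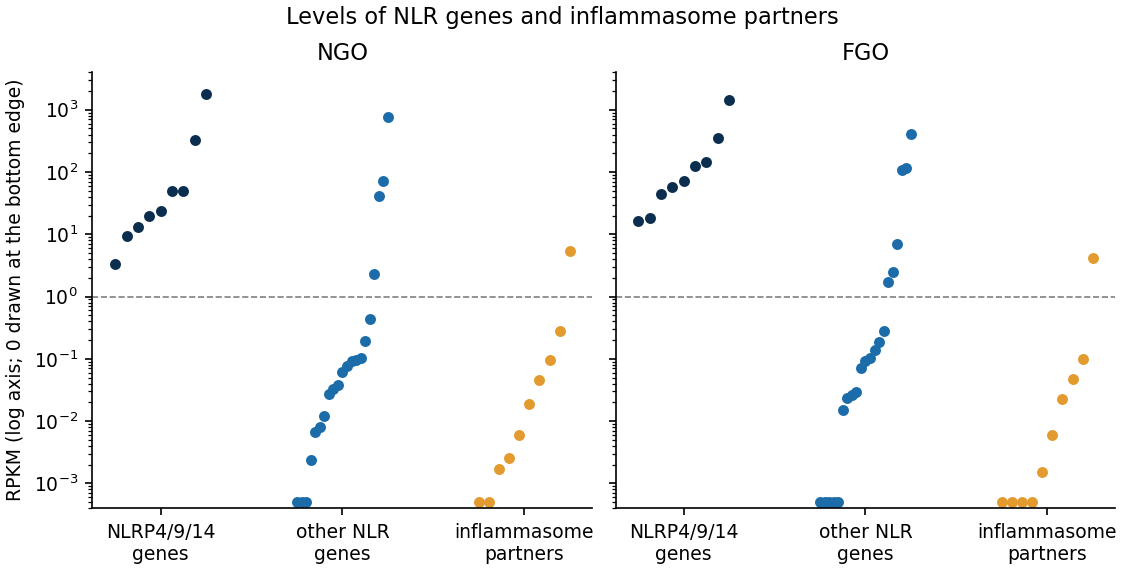
RPKM (log axis) of the 9 NLRP4, NLRP9 and NLRP14 genes, 21 other NLR genes and 10 inflammasome partners in NGOs (left) and FGOs (right). Each point is 1 gene, ordered by level within its list, values of 0 are drawn near the bottom edge, and the dashed line marks an RPKM of 1. All 9 members lie above the line in both libraries, as do 4 and 6 of the other NLR genes and 1 of the partners.

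The maternal-effect genes, a list that holds Nlrp5 and Nlrp2 too, stayed within 4-fold. All 10 that are in the table of the 11 listed, among them Ooep, Tle6, Padi6 and Npm2, had an RPKM above 1 in every library. None of them was past 4-fold in either pair, and the median log2 ratio from NGOs to FGOs was -0.39. Of the 8 oocyte transcription factors, 3 were lower past 4-fold from NGOs to FGOs: Sohlh1 (RPKM 78.0 in NGOs, 0.577 in FGOs), Sohlh2 (12.1 and 2.01) and Figla (102 and 20.6). Nobox, a homeobox factor needed for oocyte gene expression, was at 125, 101, 114 and 104 in NGOs, GO1, GO2 and FGOs.

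Genes within 50 kb of a member were mostly at low levels. Olfactory and vomeronasal receptor genes made up much of these neighbours, and Olfr715, Olfr466 and Vmn1r71 were listed at 0 in all libraries. Nlrp5 lay 23.6 kb from Nlrp4e and was much more abundant than it in every library. Ceacam20, 16.9 kb from Nlrp9b on the same strand, had an RPKM of 0.287 (NGO), 1.88 (GO1), 5.65 (GO2) and 5.37 (FGO). It was thus low in NGOs as Nlrp9b was, with a log2 ratio of 4.26 from NGOs to FGOs. Vmn1r91, 27.9 kb from the other end of Nlrp9b, was listed at 0 in NGOs and at 0.188, 0.260 and 0.733 in the other libraries. Rbmxl2, a retrogene of an RNA-binding protein 11.3 kb from Nlrp14, had an RPKM of 10.04 (NGO), 0.830 (GO1), 0.805 (GO2) and 5.37 (FGO), lower in both ScriptSeq libraries than in the dUTP libraries. Cyp2a4, 7.39 kb from Nlrp9c, did not exceed 0.0487. Vmn1r65, 34.2 kb from Nlrp4c, was highest in GO1 at 5.94 and was at 0.396 in FGOs. Some neighbours went another way than their member from NGOs to FGOs. Gm5321 (log2 ratio 2.75, 5 and 41 counts) lay near Nlrp4c (-0.45), and Gm15514 (2.04, 6 and 29 counts) near Nlrp14 (-0.28). Gm4567 (4.66, 4 and 130 counts) lay near Nlrp4e, which was higher too.

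For the 3 members with the highest mean RPKM over the libraries (Nlrp14, Nlrp4f and Nlrp4a, the last of which stood below Nlrp4b in NGOs and GO1), the genes with the most similar profiles were sought among 13096 genes with at least 100 counts in a library, as the smallest greatest difference of centred log2 RPKM over the 4 libraries. They were Zscan18 (0.02), Atp6v1c1 (0.02) and Armc4 (0.03) for Nlrp14, Rad1, Abi1 and Kbtbd3 (0.03 to 0.04) for Nlrp4f, and 1700093K21Rik, Fzd7 and Tbl1xr1 (0.04 to 0.05) for Nlrp4a. With 4 values per gene and so many genes, close matches of this size are a description only. All of these genes were less abundant than the member they resemble, the highest being Atp6v1c1 at an RPKM of 34.6 to 44.3.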

How the data were processed

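The RNA-Seq data comprise 1 library each of NGO, GO1, GO2 and FGO, grouped by their labels. The authors trimmed reads with Trim Galore 0.2.8, mapped them to GRCm38 with TopHat2 2.0.9 (1 alignment per read) and deposited RPKM values for 25587 genes. The counting program, gene annotation and strand setting are not given in the sources used here, so antisense reads could not be told apart. Counts had been planned for but the values were not whole. Library totals were fitted on genes with 1 exon such that the product of RPKM, exon length and total came out whole (99.45 to 99.72 % of values above 0, tolerance 0.05), and an exon length giving whole counts in all libraries was then sought for each gene, taken from GENCODE M21 where that worked. For 6 members (all but Nlrp9c, Nlrp14 and Nlrp4f) the smallest such length was used. The fitted totals exceed the study's uniquely mapped reads, so a fragment may hold several counts. If the length is too small, counts are too small by 1 factor in every library, and RPKM is unaffected.

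For changes, library sizes were scaled by TMM (trimmed mean of log ratios, 30 % of ratios and 5 % of expression trimmed) and log2 ratios taken with a prior count of 1 for genes holding 20 counts or more over both libraries. A change was called past 4-fold. No test was possible with 1 library per stage. Intervals are exact 95 % Poisson (levels) or binomial (ratios) intervals. The method was tested on simulated counts with 200 changed genes. Coding sequences were aligned globally and promoter windows locally with Biopython 1.88, and numpy 2.4.6, scipy 1.17.1 and pandas 2.3.3 were used in Python 3.11.15.

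The members and lists were chosen with earlier results of these data known. By rule, named genes were all members and the genes past 4-fold in each other list (at most 3 per direction). The rule also took genes within 50 kb of a member, of which only a part is named in the text. Last, it took the 3 genes most alike to each of the 3 members with the highest mean RPKM. Nlrp2, Nlrp4g, Naip1, Nek7, Pycard, Casp1, Nobox, Foxl2, Nr5a2, Kitl, Inha, Fshr, Amh, Cd3e and the oocyte and maternal-effect genes named as examples were picked outside this rule after their values were seen. Of the lists, Nlrp1c-ps, Nlrp5-ps, Khdc3, Adgre1 and Hbb-bt were not found by these names. Alternatives were other scalings, prior counts, pseudocounts, count minimums, thresholds, thinning and word lengths, and counts divided by 4, added after seeing the data.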

Additional observations from a re-analysis of the deposited data

How the results depend on the processing

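The count of members past 4-fold from NGOs to FGOs stayed at 2 under 8 alternatives (no further scaling, median of ratios, upper quartile, prior count of 5, pseudocounts of 0.1 and 1 on RPKM, no count minimum, at least 100 counts) and was 6 at a threshold of 2-fold. From GO1 to GO2 it was 0 under all 9. With counts divided by 4, an alternative chosen after seeing the data because a fragment may hold several counts, the counts of members were 2 and 0, and over all genes 921 were higher and 528 lower from NGOs to FGOs, and 80 and 7 from GO1 to GO2. All 9 members kept at least 3 counts and an RPKM above 1 in every library under the alternatives run for them. No member's log2 ratio changed sign under the 6 alternatives that alter it. Nlrp9c ranged from 3.42 (RPKM plus 1) to 3.86, Nlrp9a from 2.09 to 2.26, and Nlrp9b from 1.81 to 1.95, always under 4-fold. Over all genes, pseudocounts and minimums moved the calls more: from 1307 higher and 842 lower past 4-fold from NGOs to FGOs to 656 and 313 with RPKM plus 0.1, and 143 and 47 with RPKM plus 1, a larger share of them higher. Without a count minimum there were 1781 and 1427, with at least 100 counts 879 and 511, and at 2-fold 2695 and 2559. From GO1 to GO2 they moved from 237 and 40 to 127 and 19 (prior count of 5), 29 and 4 (plus 0.1), 0 and 1 (plus 1), 785 and 192 (no minimum), 84 and 6 (at least 100 counts) and 1082 and 448 (2-fold). Leaving out a replicate was not possible. No paired analysis was possible because each stage has 1 library and no test was run. Depth did not limit the members, whose lowest count was 2168.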
